A study of Mus musculus with 4 samples.

Results

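The receptors that pass TGF-β and BMP signals into a cell were followed in tdTom+ cells of the mouse spine. Rows were taken by symbol for 10 genes: Tgfbr1, Tgfbr2, Tgfbr3, Acvr1, Acvr2a, Acvr2b, Acvrl1, Bmpr1a, Bmpr1b and Bmpr2. All 10 were present in each of the 4 deposited matrices, which list 32286 features, of which 23481 had at least 1 UMI in the cells used. The series holds 4 single-cell RNA-seq libraries (10x Genomics, 3′ tags), 1 per condition. Control cells carried Prss56Cre/+;R26tdTom/tdTom;Nf1+/+ and came from mice of 3 months or of 12 to 16 months. Mutant cells, named Prss56-Nf1 KO, carried Prss56Cre/Cre;R26tdTom/tdTom;Nf1fl/fl at the same ages. In each, Cre from the Prss56 locus switches on the tdTom reporter, and in mutants it also deletes Nf1, the gene for the Ras-inhibiting protein neurofibromin, in Prss56-expressing boundary cap cells of the embryonic nerve roots and in their descendants. Controls had Prss56Cre/+ and mutants Prss56Cre/Cre, so the Cre genotype and the loss of Nf1 cannot be told apart in these libraries. Vertebrae T11 to L2 with visible tdTom signal were dissected free of muscle, spinal cord and ganglia, and tdTom+ cells negative for CD11b, CD31 and CD45 were sorted. The number of mice per library was not given in the sources used here. With 1 library per condition, a genotype difference at a single age and an age difference within a genotype have no replicates, and the tests below use libraries or ages as blocks.

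Ligands of the TGF-β family bind type II receptors (Tgfbr2, Acvr2a, Acvr2b and Bmpr2), which phosphorylate type I receptors (Tgfbr1, Acvr1, Acvrl1, Bmpr1a and Bmpr1b). Tgfbr1 signals through Smad2 and Smad3, whereas the other type I receptors listed here act mainly through Smad1, Smad5 and Smad9. Tgfbr3, or betaglycan, is a co-receptor without a kinase of its own that presents TGF-β ligands, TGF-β2 in particular, to Tgfbr2. In cartilage, TGF-β signalling holds back chondrocyte hypertrophy, and Bmpr1a and Bmpr1b together are needed for chondrogenesis.

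A total of 1757 of the deposited barcodes passed filters of more than 750 UMIs, more than 500 genes and under 7% mitochondrial UMIs. The passing cells numbered 717 in the control and 484 in the mutant at 3 months, and 135 and 421 at 12 to 16 months. Their summed depth ranged from 2154537 to 9429264 UMIs per library and the median from 8189 to 12644 UMIs per cell, and no barcode was shared between libraries. Nf1 itself was read at 125 to 150 CPM (the gene's UMIs over all UMIs of the cells, scaled to a fixed total) in all 4 libraries. These 3′ tags do not cover a deletion of internal exons, so its level does not check the genotype.

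Receptor levels were compared between 4 sets of cells set apart by UMI counts of a few genes, called gates here. Endplate cells had at least 1 Sox9 UMI and at least 3 UMIs of Zfp804b and Dab1 together (222 cells). Other cartilage cells had at least 1 Sox9 and at least 3 Acan UMIs without passing the endplate gate (1065 cells). Bone/stroma cells had at most 2 Acan UMIs and at least 1 of Runx2 (184 cells). Mural cells had at least 3 UMIs of Rgs5 and Myh11 together (57 cells). In the order control and mutant at 3 months, then control and mutant at 12 to 16 months, the gates held 30, 142, 12 and 38 endplate, 532, 235, 78 and 220 other cartilage, 43, 39, 25 and 77 bone/stroma, and 10, 19, 3 and 25 mural cells. All values given per library below follow this order. In total, 11 cells met more than 1 gate, 9 of them the mural and bone/stroma gates.

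The gates carried the markers of their names and some of other gates, and 2 sums stood apart. All 8 cartilage markers were read in endplate cells (summed 17404 to 24882 CPM) and other cartilage (14448 to 17268 CPM). In bone/stroma 7 of the 8 were read in each library, with sums of 2049, 304, 3064 and 1583 CPM. Mural cells had 72 to 252 CPM. The 8 osteoblast and osteocyte markers summed to 3842, 2980, 1664 and 2396 CPM in endplate. Of these only Alpl was higher in endplate than in bone/stroma (546 against 395 CPM, pooled libraries). Kcnd2, an endplate marker that no gate uses, stood at 408 CPM in endplate and 16.2 CPM in other cartilage over the pooled libraries. By library it ran from 69.3 to 1054 CPM in endplate and from 2.01 to 71.9 CPM in other cartilage, so these ranges overlapped. The first such sum was the bone/stroma gate of the 3-month mutant, where 24 of 39 cells held a UMI of Ptprc, Cdh5 or Pecam1, genes of leukocytes and endothelium that the sort was set to remove. The other bone/stroma sums held 3, 2 and 8 such cells. In that library the 5 hematopoietic markers summed to 5817 CPM and the 8 osteoblast and osteocyte markers to 8814 CPM, against 20.8 to 2726 CPM and 47839 to 144370 CPM in the others. Bone/stroma levels that moved by over 1.5 times without these cells are therefore given both ways, as are the calls that changed. The second was the mural gate of the 12- to 16-month control, which had 3 cells and a marrow-stroma marker sum of 14856 CPM, against 601 to 2505 CPM in the other mural sums. It was left out of every test, and its levels below are listed for completeness.

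Tgfbr1 and Tgfbr2, the type I and type II parts of the TGF-β receptor, were read in opposite proportions in the different cell sets (plot of receptor levels by gate). Tgfbr1 (ENSMUSG00000007613) lies on the plus strand of mm10 at chr4:47353222-47414931, and Tgfbr2 (ENSMUSG00000032440) on the minus strand at chr9:116084293-116175360. The 250 bases before the first RefSeq start of each (GRCm38.p6) are printed because this pair carries the main contrast. Words were searched on both strands, and capitals mark them where found. The SOX-type word was ACAAAG. The RUNX-type words were TGTGGT or, as an accepted second form, TGCGGT. The GC-box word was GGGCGG.
Tgfbr1, chr4:47352972-47353221, plus strand: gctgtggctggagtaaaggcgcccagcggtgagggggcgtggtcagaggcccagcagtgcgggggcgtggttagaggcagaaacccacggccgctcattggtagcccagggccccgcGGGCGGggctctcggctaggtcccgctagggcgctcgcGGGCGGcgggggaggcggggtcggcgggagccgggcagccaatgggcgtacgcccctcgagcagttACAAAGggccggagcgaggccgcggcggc
Tgfbr2, chr9:116175364-116175613, minus strand: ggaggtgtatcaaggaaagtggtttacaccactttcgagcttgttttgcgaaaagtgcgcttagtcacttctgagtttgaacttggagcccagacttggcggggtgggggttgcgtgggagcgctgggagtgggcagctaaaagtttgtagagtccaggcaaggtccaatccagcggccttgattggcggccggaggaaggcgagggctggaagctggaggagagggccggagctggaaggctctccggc
The Tgfbr1 window holds 74.8% G and C, 29 CpG dinucleotides, 2 GC-box words and 1 SOX-type word. The Tgfbr2 window holds 58.4% G and C, 12 CpG dinucleotides and none of these words. Of 32851 mouse promoter windows of this length, 16.5% hold a SOX-type, 18.6% a RUNX-type and 32.7% a GC-box word, and the median window has 52.4% G and C and 6 CpG dinucleotides. Such matches describe the letters only, and no factor binding was measured.

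In endplate cells Tgfbr1 stood at 56.4, 29.1, 39.1 and 28.1 CPM, against 111, 205, 163 and 208 CPM in other cartilage. The gates did not overlap, and every library read less Tgfbr1 in its endplate cells. In the fit over 15 gate-by-library sums with library as a block (edgeR quasi-likelihood, Benjamini-Hochberg over 10576 genes), Tgfbr1 was lower by 2.36 ± 0.36 on the log2 scale (SE; adjusted p = 0.00068), a 5.13-fold difference. The comparison called 9.48% of all genes lower and 8.08% higher in endplate. Among the 10 receptors it called Tgfbr1 alone as lower and Tgfbr2 alone as higher, so the count of members called was near the background of all genes.

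Tgfbr2 went the other way. Its levels were 214, 180, 177 and 146 CPM in endplate and 80.4, 82.3, 94.6 and 94.1 CPM in other cartilage, again without overlap and higher in 4 of 4 libraries. The difference was 0.86 ± 0.18 on the log2 scale (edgeR, adjusted p = 0.0052), or 1.82-fold. Without the 3-month control library it was 0.72 on the log2 scale with an adjusted p of 0.078, so that this call rested on that library. Per cell, 85.6% of endplate and 57.4% of other cartilage cells had a Tgfbr2 UMI, while 37.4% and 62.3% had a Tgfbr1 UMI. Endplate cells were the deeper of the 2 sets, with a median of 18633 against 11241 UMIs. After each cell was thinned to 3000 UMIs, which left out 33 other cartilage cells and no endplate cell, the shares were 43.2% and 21.1% for Tgfbr2 and 10.4% and 30.5% for Tgfbr1. Among Ptprc-positive cells of no gate, a comparison set with a median of 4674 UMIs, the unthinned shares were 28.3% for Tgfbr2 and 19.6% for Tgfbr1. The thinned shares there were 17.2% and 13.8% of the 29 cells left after 17 of 46 dropped out. The interval of the latter, 3.89 to 31.7% from 4 cells with a UMI, includes the thinned Tgfbr1 share of endplate cells, so these shares are not told apart. Ptprc-positive cells were not shown to lack either receptor, so they set no level of absent expression. Unthinned endplate cells held 150 Tgfbr1 UMIs in 83 of 222 cells.

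**Figure D1:**
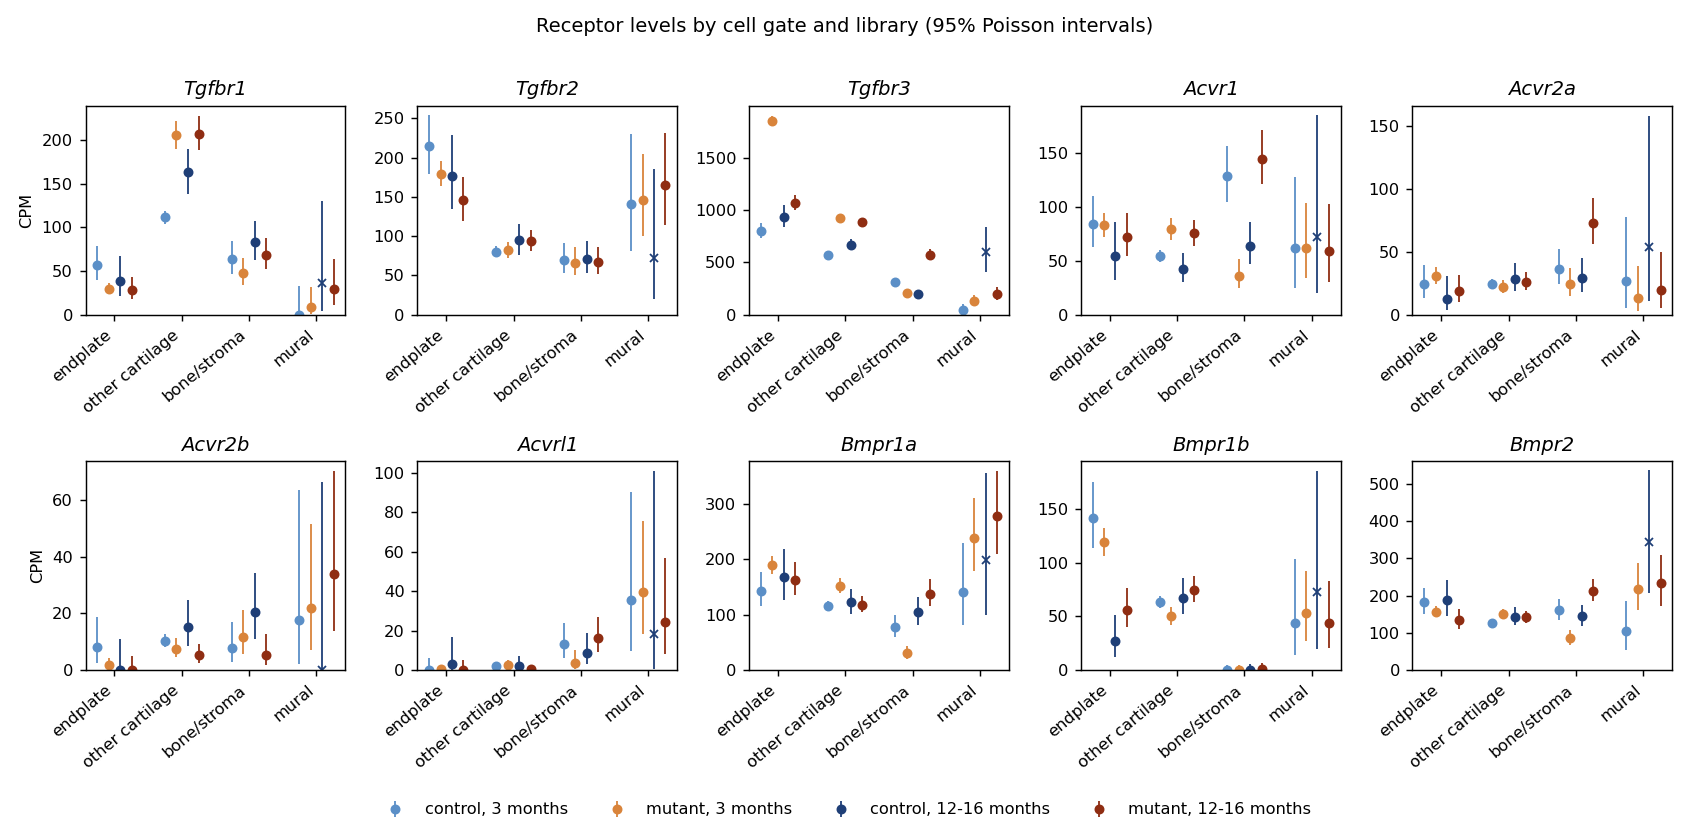
Levels of the 10 receptors in CPM (1 panel per gene, linear axis from 0) by gate. Each point is 1 library, bars are 95% Poisson intervals that cover counting error only, and crosses mark the mural sum of 3 cells. Tgfbr1 is highest in other cartilage (111 to 208 CPM), Tgfbr2 is higher in endplate (146 to 214 CPM) than in other cartilage (80.4 to 94.6 CPM), and Bmpr1b lies at 0 to 1.09 CPM in bone/stroma.

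The ratio of Tgfbr2 to Tgfbr1 UMIs within a cell set is free of library size and sets the pair against each other directly. It was 3.80, 6.17, 4.54 and 5.19 in endplate and 0.722, 0.401, 0.580 and 0.453 in other cartilage. Each endplate value exceeded every other cartilage value, and their 95% intervals did not meet (the nearest were 2.46 and 0.801). Bone/stroma lay between them with 1.10, 1.39, 0.860 and 0.984. In mural cells the ratio was at least 3.86 in the 3-month control, where Tgfbr1 had no UMI, 16.5 (95% interval 4.22 to 142) in the 3-month mutant and 5.67 (2.35 to 16.5) in the 12- to 16-month mutant. Over the pooled libraries the ratios were 5.34 in endplate, 0.557 in other cartilage, 1.06 in bone/stroma and 8.70 in mural cells. Because capture of a 3′ tag differs between genes, only the change of this ratio between cell sets is read here, not its distance from 1.

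**Figure D2:**
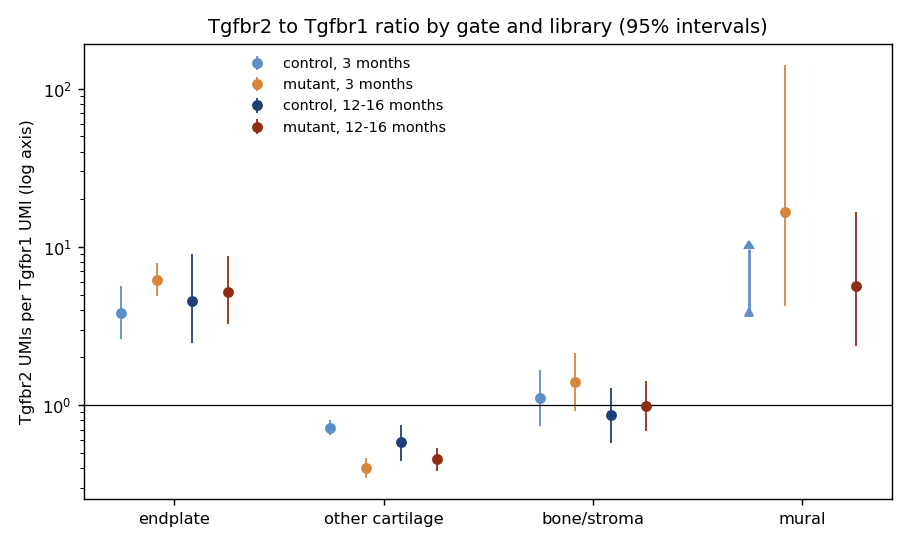
Tgfbr2 UMIs per Tgfbr1 UMI by gate (log axis). Points are libraries and bars 95% intervals. The triangle with an arrow is the lower bound of 3.86 in mural cells of the 3-month control, which had no Tgfbr1 UMI, and the mural sum of 3 cells is not drawn. All endplate points (3.80 to 6.17) lie above all other cartilage points (0.401 to 0.722).

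Tgfbr1 was also low outside cartilage. Bone/stroma cells held 63.5, 47.6, 82.9 and 68.5 CPM, and mural cells 0, 8.83, 36.1 and 29.2 CPM from only 0, 2, 2 and 6 UMIs. Against other cartilage, the fit gave −1.55 ± 0.34 for bone/stroma (adjusted p = 0.0031) and −3.91 ± 0.57 for mural cells (adjusted p = 0.00020), on the log2 scale. Within libraries, other cartilage exceeded mural cells at least 4.2-fold in the 3-month control (against a floor of 3 UMIs per library), 23.3-fold (6.41 to 193) in the 3-month mutant and 7.10-fold (3.24 to 19.4) in the 12- to 16-month mutant. Against bone/stroma the mural level was lower by 2.36 ± 0.62 (edgeR, adjusted p = 0.017). That call held in 12 of 14 alternative settings and was lost without the 3-month mutant (adjusted p = 0.061) and after thinning (0.099). These contrasts called 17.1% of genes higher and 17.3% lower in bone/stroma against other cartilage, 12.5% and 15.7% in mural cells against other cartilage, and 9.45% and 11.2% in mural cells against bone/stroma.

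Tgfbr2 in mural cells stood at 141, 146 and 166 CPM in the 3 sums tested. It was 0.95 ± 0.22 higher than in bone/stroma on the log2 scale (adjusted p = 0.0089), where the libraries held 70.0, 66.1, 71.2 and 67.4 CPM. That call held in 9 of 14 alternative settings. It was lost without the 3-month mutant (adjusted p = 0.056), without the 12- to 16-month mutant (0.085), without the cells that held Ptprc, Cdh5 or Pecam1 (0.072), without the low-count filter (0.061) and after thinning (0.12), with differences of 0.65 to 0.90 in these 5 settings. Against other cartilage the mural difference of 0.45 ± 0.21 did not pass (adjusted p = 0.14). Bone/stroma lay below other cartilage in 4 of 4 libraries by 0.50 ± 0.18, which missed the threshold by little (adjusted p = 0.05003) and passed it in 5 of 14 alternative settings. Without the cells that held Ptprc, Cdh5 or Pecam1, the 3-month mutant read 126 CPM in bone/stroma, above its other cartilage at 82.3 CPM.

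**Figure D3:**
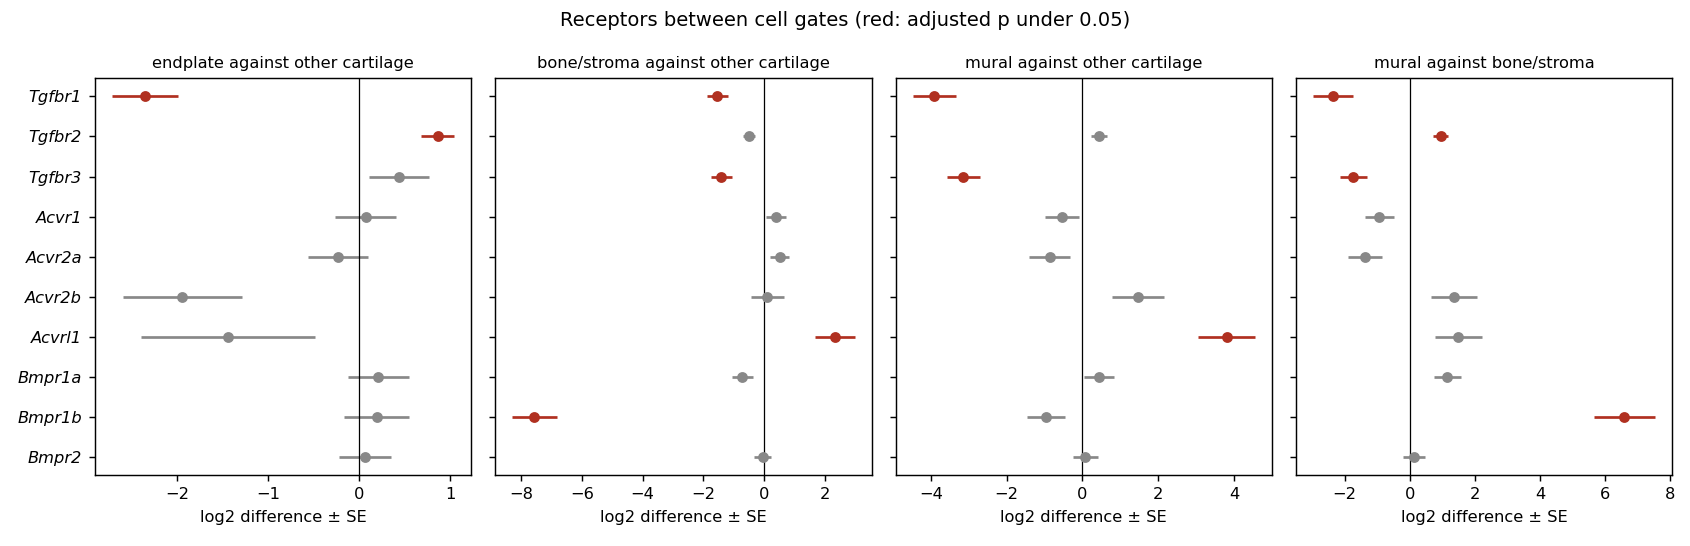
Difference between gates for each receptor as log2 ± SE in the 4 contrasts of the fit, with red marking adjusted p under 0.05. Tgfbr1 lies at −2.36 and Tgfbr2 at 0.86 in endplate against other cartilage, while Bmpr1b is lowest of all in bone/stroma against other cartilage.

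Tgfbr3 (ENSMUSG00000029287, minus strand, chr5:107106570-107289629), the betaglycan co-receptor, gave the largest share of receptor reads in cartilage and also in each bone/stroma library. By library it made up 48.4, 70.1, 58.2 and 63.4% of the UMIs of the 10 receptors in endplate and 49.1, 55.1, 49.6 and 54.4% in other cartilage, the 3-month control having the lower share in endplate. It made up 27.4 to 44.0% in bone/stroma and 7.14, 14.2 and 18.0% in the mural sums tested. The untested mural sum of 3 cells stood at 40.7%. Such shares include the capture of each gene's 3′ tag, so only their change between cell sets is of use. Endplate cells held 801, 1851, 934 and 1070 CPM and other cartilage 568, 924, 667 and 887 CPM. The endplate level was higher in 4 of 4 libraries, but the difference of 0.44 ± 0.33 on the log2 scale did not pass (adjusted p = 0.40).

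Bone/stroma cells held less Tgfbr3, at 307, 209, 198 and 572 CPM, which was −1.41 ± 0.34 against other cartilage (adjusted p = 0.0055). The highest bone/stroma library overlapped the lowest cartilage library. Without cells that held Ptprc, Cdh5 or Pecam1, the bone/stroma levels were 334, 811, 192 and 639 CPM, so the 3-month mutant moved from the third place to the first. Mural cells had 44.2, 132 and 195 CPM in the tested sums, −3.14 ± 0.43 against other cartilage (adjusted p = 0.00012) and −1.73 ± 0.42 against bone/stroma (adjusted p = 0.011). The latter was lost without the 3-month control (adjusted p = 0.11). The untested mural sum stood at 596 CPM, and 1 of its 3 cells supplied 30 of its 33 UMIs. In the 12- to 16-month mutant, at 195 CPM, 1 of 25 mural cells supplied 20 of 40 UMIs.

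Among the BMP receptors, Bmpr1b was the gene with the sharpest limit. It lies on the minus strand at chr3:141837136-142169425 (ENSMUSG00000052430), and RefSeq gives it 3 windows, each with 1 SOX-type word, of which 2 overlap and share theirs. Of these, the window farthest upstream is shown beside that of Bmpr1a (chr14:34410734-34503341, minus strand, ENSMUSG00000021796), since both encode type I BMP receptors and were distributed differently. The annotated Bmpr1b gene reaches further upstream, to 142169425, so its window lies well inside the gene, whereas that of Bmpr1a lies near the gene's outer end. The 2 windows are thus not like positions.
Bmpr1b, chr3:141982265-141982514, minus strand: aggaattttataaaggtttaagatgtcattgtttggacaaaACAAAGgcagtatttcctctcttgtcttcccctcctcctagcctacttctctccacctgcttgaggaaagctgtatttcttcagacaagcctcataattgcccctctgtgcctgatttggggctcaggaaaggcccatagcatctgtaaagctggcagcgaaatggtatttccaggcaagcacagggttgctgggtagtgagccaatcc
Bmpr1a, chr14:34502547-34502796, minus strand: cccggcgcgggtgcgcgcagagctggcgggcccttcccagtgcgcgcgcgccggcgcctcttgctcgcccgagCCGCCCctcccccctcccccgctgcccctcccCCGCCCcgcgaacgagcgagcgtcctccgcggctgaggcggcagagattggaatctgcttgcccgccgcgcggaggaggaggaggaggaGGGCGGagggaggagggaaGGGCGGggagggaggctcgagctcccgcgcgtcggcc
The Bmpr1b window has 46.8% G and C and 1 CpG dinucleotide, whereas that of Bmpr1a has 78.8% G and C, 36 CpG dinucleotides and 4 GC-box words. The promoter table had entries for 8 of the 10 receptors, all but Tgfbr3 and Acvrl1.

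Bmpr1b had 88, 331, 9 and 42 UMIs in endplate (142, 119, 27.0 and 56.2 CPM) and 63.2, 49.97, 67.4 and 74.7 CPM in other cartilage. In bone/stroma it had 0, 0, 0 and 1 UMI among 3240578 UMIs of 184 cells. Other cartilage was therefore at least 16.2-, 14.4- and 15.5-fold higher in the first 3 libraries against a floor of 3 UMIs per library. In the 12- to 16-month mutant the ratio was 68.7 (95% interval 12.2 to 2730). The fit called the difference (adjusted p = 5.0e-06). Mural cells again held Bmpr1b, at 44.2, 53.0, 72.3 and 43.9 CPM from 5, 12, 4 and 9 UMIs in 13 of 57 cells, and exceeded bone/stroma with an adjusted p of 0.00036. The within-library excess of mural cells was at least 11.4-fold and 15.2-fold at 3 months and 40.3-fold (5.59 to 1768) in the 12- to 16-month mutant. No Bmpr1b UMI was read in the 25 endothelial or the 46 Ptprc-positive cells outside the gates, which allows up to 13.6 and 9.69 CPM there (3 UMIs of each total).

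Bmpr1a was read in all 4 gates, in contrast to Bmpr1b. Its levels were 144, 189, 168 and 163 CPM in endplate, 116, 153, 123 and 118 CPM in other cartilage, 77.8, 30.2, 105 and 138 CPM in bone/stroma and 141, 238, 199 and 278 CPM in mural cells. None of its 4 contrasts passed, the nearest being mural against bone/stroma at 1.15 ± 0.41 (adjusted p = 0.067). That contrast passed in 3 of 14 alternative settings, without the low-count filter (adjusted p = 0.011), by DESeq2 (0.036) and without the cells that held Ptprc, Cdh5 or Pecam1 (0.037). Bone/stroma against other cartilage passed in 1 of 14, without the filter (0.024). The lowest of these values, 30.2 CPM in the 3-month mutant, became 132 CPM once cells with Ptprc, Cdh5 or Pecam1 were left out. Over pooled cells there were 0.592 Bmpr1b UMIs per Bmpr1a UMI in endplate, 0.499 in other cartilage, 0.217 (0.141 to 0.325) in mural cells and 0.0035 (8.9e-05 to 0.020) in bone/stroma. In endplate the ratio spread widely over libraries, at 0.989, 0.628, 0.161 and 0.344, with both 12- to 16-month values below both 3-month values.

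Bmpr2 (ENSMUSG00000067336, plus strand, chr1:59763400-59879014), the type II receptor that prefers BMPs, gave no call in any contrast. It stood at 182, 156, 189 and 134 CPM in endplate, 127, 150, 143 and 142 CPM in other cartilage, 161, 85.9, 144 and 213 CPM in bone/stroma and 106, 216, 343 and 234 CPM in mural cells. The 85.9 CPM of the 3-month mutant became 264 CPM without cells that held Ptprc, Cdh5 or Pecam1. Its fitted differences ran from −0.06 to 0.14 on the log2 scale over the 4 contrasts, with SE of 0.28 to 0.34 and adjusted p-values of 0.82 or above. This does not show that its levels were equal.

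Acvr1 (ENSMUSG00000026836, minus strand, chr2:58388644-58567157), or ALK2, binds BMPs and activins, and activating mutations of it cause heterotopic bone in people. It had 83.8, 82.6, 54.1 and 72.3 CPM in endplate and 54.2, 79.0, 42.3 and 75.2 CPM in other cartilage, which overlapped (0.07 ± 0.33, adjusted p = 0.93). Bone/stroma levels were 128, 36.0, 64.0 and 145 CPM and did not pass against other cartilage (0.39 ± 0.34, adjusted p = 0.41). The low value again was the 3-month mutant, which read 126 CPM without cells that held Ptprc, Cdh5 or Pecam1. Without those cells in any gate, Acvr1 was called higher in bone/stroma by 0.82 on the log2 scale (adjusted p = 0.00090), and without the 3-month mutant library by 0.85 (adjusted p = 0.0055). Mural cells held 61.8, 61.8, 72.3 and 58.5 CPM. Against bone/stroma the mural difference of −0.93 ± 0.46 did not pass (edgeR, adjusted p = 0.17). It was called without the cells that held Ptprc, Cdh5 or Pecam1 (−1.385, adjusted p = 0.00059) and without the 3-month mutant library (−1.395, adjusted p = 0.012).

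The activin type II receptors were sparse. Acvr2a (ENSMUSG00000052155, plus strand, chr2:48814109-48903269) had 24.2, 30.9, 12.0 and 18.7 CPM in endplate and 24.6, 21.9, 28.2 and 26.0 CPM in other cartilage. It had 36.3, 24.4, 29.1 and 72.9 CPM in bone/stroma, and the 24.4 CPM of the 3-month mutant became 63.2 CPM without the cells that held Ptprc, Cdh5 or Pecam1. It was called higher there than in other cartilage only without those cells (0.88, adjusted p = 0.013). Mural cells held 13.2 to 26.5 CPM of Acvr2a in the tested sums, which did not pass against bone/stroma (−1.38 ± 0.53, edgeR, adjusted p = 0.083). That contrast passed without those cells (−1.77, adjusted p = 0.012) and without the low-count filter (−1.44, adjusted p = 0.034). Acvr2b (ENSMUSG00000061393, plus strand, chr9:119402118-119434995) had 8.06, 1.80, 0 and 0 CPM in endplate from 5, 5, 0 and 0 UMIs, and 10.2, 7.51, 15.1 and 5.20 CPM in other cartilage. The endplate level was lower in each library, and the difference of −1.95 ± 0.66 just missed the threshold (adjusted p = 0.057), which it passed in 5 of 13 alternative settings. Mural cells held 17.7 to 34.1 CPM of Acvr2b in the tested sums, from 2, 5 and 7 UMIs, above every other cartilage library. That difference of 1.46 ± 0.68 did not pass (edgeR, adjusted p = 0.13), but passed by DESeq2 (1.53, adjusted p = 0.046). In bone/stroma of the 3-month mutant, Acvr2b had 10 of 861952 UMIs. Without the cells that held Ptprc, Cdh5 or Pecam1 it had 4 of 173926 there (23.0 CPM). Both genes overlap a gene on the other strand, Orc4 and Gm47320.

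Acvrl1 (ENSMUSG00000000530, plus strand, chr15:101128522-101145336), or ALK1, is the type I receptor for BMP9 and BMP10 known mainly from endothelium. It was almost unread in cartilage, with 0, 0.719, 3.00 and 0 CPM in endplate and 2.09, 2.61, 2.01 and 0.473 CPM in other cartilage. Mural cells had 35.3, 39.7, 18.1 and 24.4 CPM, which was 3.81 ± 0.75 higher than other cartilage on the log2 scale (adjusted p = 0.0018). The 25 endothelial cells outside the gates stood at 31.7 CPM from 7 UMIs. Bone/stroma lay between, at 12.97, 3.48, 8.72 and 16.3 CPM (5.75 CPM in place of 3.48 without the cells that held Ptprc, Cdh5 or Pecam1), and was called higher than other cartilage (2.32 ± 0.65, adjusted p = 0.013). That call was lost without the 3-month control (adjusted p = 0.10) or without the 12- to 16-month mutant (0.14).

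Each gate holds more than 1 kind of cell, and receptor levels differed inside them. These divisions were made after the data were examined and are given as pooled levels without a test. Among other cartilage cells, Tgfbr1 stood at 167 CPM (95% interval 159 to 175) in the 889 cells without a Runx2 UMI and at 97.1 CPM (86.6 to 109) in the 176 cells with 1 or more. By library the former were at 111, 268, 176 and 263 CPM and the latter at 112, 73.2, 131 and 88.8 CPM. The 3-month control was thus the library without such a gap. Tgfbr2 was at 80.6 and 94.9 CPM in the same cells, closer to each other. In endplate, the 21 cells with Col10a1, the collagen of hypertrophic chondrocytes, held 76.9 CPM of Tgfbr2 and 571 CPM of Tgfbr3, against 192 and 1630 CPM in the other 201 cells. Endplate Col10a1 ran from 0 to 2306 CPM by library, so this split did not fall evenly over the libraries. The part of the libraries in these gaps was not tested.

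Within bone/stroma, cells with marrow-stroma markers and cells with osteoblast markers had different sets of receptors. The 61 stromal cells held 911 CPM of Tgfbr3, 129 of Acvr2a, 187 of Acvr1 and 169 of Bmpr1a. The 84 osteoblastic cells held 235, 23.1, 101 and 94.8 CPM of the same genes. Tgfbr1 was the exception, at 60.9 CPM (43.5 to 83.0) in stromal and 81.5 CPM (68.6 to 96.1) in osteoblastic cells with overlapping intervals. The stromal cells numbered 10, 8, 5 and 38 by library and the osteoblastic cells 30, 7, 18 and 29, so that the make-up of the gate moved with the library.

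Other genes of the pathway also differed between gates. In endplate against other cartilage, 3 of 13 ligands tested were called higher and 5 lower, and 2 co-receptors or decoys of 6 were called in each direction. Tgfb2, the ligand that depends most on betaglycan, stood at 85.5, 112, 117 and 81.6 CPM in endplate and at 10.2, 36.6, 15.1 and 32.1 CPM in other cartilage (2.01 ± 0.34, adjusted p = 0.0013). The ligands Inhba, Gdf5 and Gdf6 were lower in endplate, and Gdf5, a marker of the joint lineage, had 1 UMI in all endplate cells against 35 to 181 UMIs per library in other cartilage. Among co-receptors, the BMP co-receptor Rgma was higher (1.78 ± 0.33, adjusted p = 0.0025) and Nrp1 too (1.91 ± 0.48, adjusted p = 0.015). Endoglin (Eng) was lower, at 4.84, 6.83, 3.00 and 5.35 CPM against 21.9, 15.7, 28.2 and 33.1 CPM (−2.30 ± 0.43, adjusted p = 0.0026), as was the decoy receptor Bambi (adjusted p = 0.026).

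Of 13 response genes of these receptors tested in endplate against other cartilage, 5 were called lower and 1, Dlx5, higher. Id4 was lower by 1.69 ± 0.22 (adjusted p = 0.00022), Id3 by 1.59 ± 0.32 (adjusted p = 0.0042) and Klf10 by 1.26 ± 0.27 (adjusted p = 0.0063) on the log2 scale. Of 10 regulators, 4 were called lower and 1 higher. They included the feedback inhibitors Pmepa1 (−2.68 ± 0.61, adjusted p = 0.0085) and Skil (−1.44 ± 0.31, adjusted p = 0.0065), while the ubiquitin ligase Smurf2 was higher by 0.72. Of 8 Smads, Smad7 (−0.99 ± 0.24) and Smad6 (−1.51 ± 0.48), both inhibitory, were called lower and Smad2, which Tgfbr1 phosphorylates, higher (0.68 ± 0.19, adjusted p = 0.026). The other receptors outside the 10 gave no call among the 2 tested. The median of the response list was −0.93, against −0.02 over all genes tested and 0.07 over the 10 receptors. The 5 stress markers, immediate early genes such as Fos and Atf3 among them, moved with this list. They summed to 3356 to 8430 CPM in endplate, 6960 to 12323 in other cartilage, 736 to 3758 in bone/stroma and 618 to 2403 in mural cells, and in each library they were lower in endplate than in other cartilage. Their part in the response-gene differences was not tested.

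In bone/stroma against other cartilage, 10 of 13 response genes were called lower and 1, Col1a1, higher. Id1, a direct BMP target, had 44.1, 17.4, 33.4 and 31.5 CPM in bone/stroma and 598, 317, 537 and 459 CPM in other cartilage (−4.09 ± 0.25, adjusted p = 2.8e-07). Id4 (−2.15, adjusted p = 7.8e-06) and Id2 (−3.18, adjusted p = 2.0e-05) were lower too. Of 8 Smads, Smad6 (2.15 ± 0.36, adjusted p = 0.00042) and Smad1 (1.04 ± 0.31, adjusted p = 0.018) were higher and none lower. Of 10 regulators only Skil was called, as lower (−1.26 ± 0.30, adjusted p = 0.0056). Among co-receptors, Nrp1 was higher by 6.32 and Rgma, Cd109 and Rgmb lower by 3.47, 3.20 and 1.499. Of the ligands 3 were higher and 5 lower, with Bmp4 at 66.1, 22.0, 59.6 and 39.1 CPM in bone/stroma against 0 to 3.31 CPM in other cartilage, and Amhr2 was the lower call among 2 other receptors. The median of the response list was −2.39, against 0.05 over all genes and −0.28 over the receptors.

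Mural cells shared the higher Nrp1 (6.86) and Smad6 (2.36) against other cartilage, with Smad7 (1.02) and Smad2 (0.72) also called higher and Smad3 lower (−1.54). Of 13 response genes 7 were lower and none higher, led by Klf10 (−4.32), Junb and Ccn2. Among regulators Skil was lower and Ski higher, of 10 tested. Of 13 ligands 3 were higher and 4 lower, 1 of 6 co-receptors was called in each direction, and Amhr2 had no mural UMI. The median response gene was at −1.53, against −0.13 over all genes and −0.23 over the receptors. Against bone/stroma, Id1 had the smallest adjusted p of these lists, with mural levels of 618, 318, 145 and 390 CPM (3.59 ± 0.27, adjusted p = 2.2e-06). In that contrast Tgfb2 was 4.65 higher and Tgfb1 2.19 lower, with 4 of 13 ligands higher and 3 lower. Of the response genes 3 were higher and 2 lower, of the Smads only Smad3 was called (−2.16), of the regulators only Ppm1a (0.96), of the co-receptors only Rgma (2.05), and no other receptor of 2.

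The question of the study, how loss of Nf1 in this lineage acts on the spine, was followed for the receptors in other cartilage, the largest gate. With 1 library in each group these are ratios of CPM with 95% intervals that cover counting error only, and no test was made. At 3 months Tgfbr1 stood at 205 CPM in the mutant and 111 in the control, a ratio of 1.84 (1.66 to 2.05), and Tgfbr3 at 924 and 568 CPM, a ratio of 1.63 (1.55 to 1.71). These were the 2 of 10 members past 1.5-fold higher, where 12.2% of all genes with at least 20 UMIs were past it upward and 13.6% downward. No member was past it downward. The others ran from 0.736 for Acvr2b to 1.46 for Acvr1, with Tgfbr2 at 1.02 (0.881 to 1.19). Over all passing cells at 3 months the ratio was 1.05 (0.957 to 1.16) for Tgfbr1 and 2.09 (2.02 to 2.16) for Tgfbr3. Endplate cells, where Tgfbr1 was low, were 4.18% of passing cells in the 3-month control and 29.3% in the 3-month mutant. Zfp804b, which with Dab1 sets this gate, ran from 108 to 1527 CPM by library in endplate. The 3 endplate markers, Kcnd2 included, summed to 811 CPM in that control's endplate and 2195 CPM in that mutant's. The shares thus also depend on the levels of the genes that set the gate. The part of make-up and of these levels in the ratios was not tested.

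In other cartilage the Tgfbr1 and Tgfbr3 ratios were smaller at 12 to 16 months. Tgfbr1 was at 208 and 163 CPM (1.27, 1.06 to 1.53), Tgfbr3 at 887 and 667 CPM (1.33, 1.22 to 1.45) and Tgfbr2 at 94.1 and 94.6 CPM (0.995, 0.775 to 1.29). Acvr1 was past the fold upward at 75.2 against 42.3 CPM (1.78, 1.26 to 2.56), and Acvr2b downward at 5.20 against 15.1 CPM (0.345, 0.143 to 0.803) from 11 and 15 UMIs. Of all genes, 11.8% were past the fold upward and 13.3% downward, so 1 of 9 members in each direction was near that background. Acvr1 lay higher in the mutant at both ages, at 79.0 against 54.2 CPM at 3 months.

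Over both ages, with age as a block and 1 residual degree of freedom, none of the 9 receptors tested in other cartilage and none of the 8 tested in endplate passed (edgeR). Acvr1 was nearest in other cartilage at 0.68 ± 0.25 (adjusted p = 0.31, higher in 2 of 2 ages), followed by Tgfbr1 at 0.64 ± 0.26 (adjusted p = 0.37, higher in 2 of 2 ages). These 2 of 9 had an unadjusted p under 0.05 in other cartilage, as did 1022 of all 11327 genes tested there. In endplate 0 of 8 receptors did, against 213 of 8180 genes. DESeq2 gave the same counts of receptors, against 322 and 66 of all genes in the 2 gates. Likewise 0 receptors passed its adjusted threshold in either gate. The fit called 1.28% of 11327 genes higher and 0.424% lower in other cartilage, and 0.0122% and 0.0489% of 8180 genes in endplate. Tgfbr3 in endplate was at 0.71 ± 0.36 and Tgfbr1 at −0.75 ± 0.41, both with an adjusted p of 1.

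The Tgfbr1 ratio differed inside the cartilage gate as well. Cells without a Runx2 UMI held 268 CPM in the mutant and 111 in the control at 3 months, and 263 and 176 CPM at 12 to 16 months. Cells with Runx2 held 73.2 and 112 CPM at 3 months and 88.8 and 131 CPM at 12 to 16 months, so that the order of the genotypes turned. These levels come from the division made after the data were examined, are given without intervals and were not tested. The 12- to 16-month control held 78 other cartilage cells in all, with and without Runx2.

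Endplate gave other ratios than the cartilage around it. At 3 months Tgfbr1 was at 29.1 CPM in the mutant and 56.4 in the control, a ratio of 0.516 (0.343 to 0.790), opposite in direction to other cartilage. Tgfbr3 was at 1851 and 801 CPM (2.31, 2.11 to 2.54). At 12 to 16 months Tgfbr1 was at 0.719 (0.344 to 1.56) and Tgfbr3 at 1.15 (1.00 to 1.31). The control endplate sums rest on 30 and 12 cells. The summed markers of hypertrophic cartilage were 3857, 1320, 613 and 2015 CPM in endplate. Endplate cells with Col10a1 held less Tgfbr3 than the others over the pooled libraries. The part of these cells, and of the levels of the genes that set the gate, in these ratios was not tested.

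The rest of the pathway was read on the same scale. Acvr1b, the type I receptor for activins that shares Smad2 and Smad3 with Tgfbr1, stood at 27.8 CPM in mutant and 7.33 CPM in control other cartilage at 3 months and at 13.2 and 5.03 CPM at 12 to 16 months. It was past 1.5-fold upward at both ages. Of 13 response genes in other cartilage at 3 months, 6 were past the fold downward, among them Id1, Id2, Id3 and Id4, and 3 upward, Ccn2 among them. Id1 was at 317 CPM in that mutant against 598 in the control, and at 459 against 537 CPM at 12 to 16 months. In endplate 7 of 11 response genes were past it downward at 3 months, again with all 4 Id genes, and Id1 was at 192 against 616 CPM. Of all endplate genes, 21.5% were past the fold upward and 16.1% downward at 3 months, and 19.25% and 14.4% at 12 to 16 months. At 12 to 16 months 1 of 11 was downward and 4 upward in endplate, and 4 of 13 downward and 2 upward in other cartilage. The 5 stress markers summed to 8430 CPM in control and 4248 CPM in mutant endplate at 3 months. At 12 to 16 months they summed to 3356 CPM in control and 3670 CPM in mutant endplate. Their part in these response-gene ratios was not tested. None of the 8 Smads and none of the 10 regulators was past the fold in other cartilage at 3 months.

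**Figure D4:**
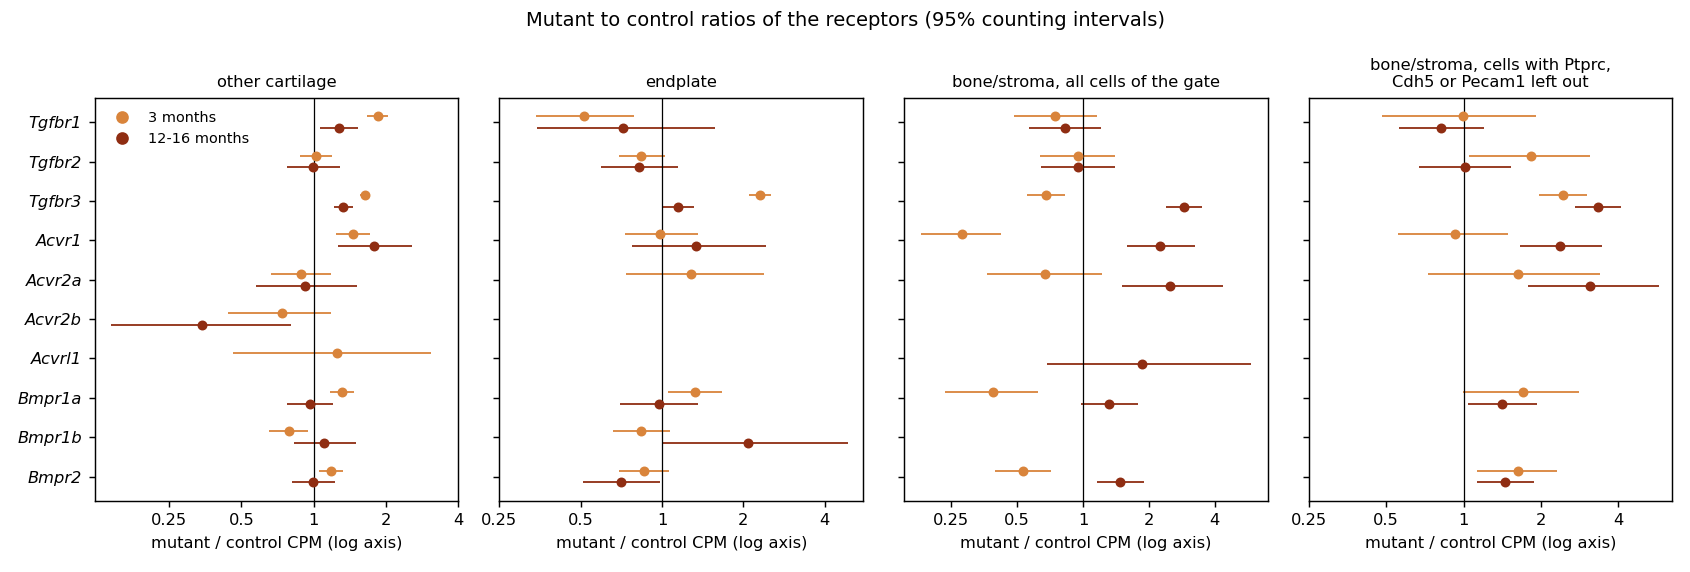
Ratio of mutant to control CPM for each receptor at 3 and at 12 to 16 months (log axis, line at 1) in other cartilage, endplate and bone/stroma, the last also without cells that held Ptprc, Cdh5 or Pecam1. Bars are 95% counting intervals of 1 library against 1. Tgfbr1 at 3 months lies at 1.84 in other cartilage and 0.516 in endplate, and Acvr1 in bone/stroma moves from 0.280 to 0.926 once those cells are left out.

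Other measures were set beside the receptor ratios, first at 3 months. Among genes spanning over 100 kb, which include Tgfbr3, Acvr1, Bmpr1b and Bmpr2, the median was 0.28 on the log2 scale and 24.9% were past 1.5-fold upward in other cartilage, against 12.2% of all genes. In endplate 32.1% of long genes were past it upward, against 21.5% of all genes. At 12 to 16 months 16.5% were in other cartilage. Of the nuclear RNAs, Malat1 had a mutant-to-control ratio of 0.962 at 3 months and 0.484 at 12 to 16 months in other cartilage, Neat1 1.26 and 1.36, and Meg3 0.796 and 0.747. The summed markers of hypertrophic cartilage were 414, 1061, 174 and 1542 CPM and those of stress 12323, 8456, 9369 and 6960 CPM in the same cells. The part of these measures in the receptor ratios was not tested.

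In bone/stroma the 3-month ratios turned on the cells named above. With all cells Acvr1 was at 0.280 (0.181 to 0.423), Bmpr1a at 0.388 (0.235 to 0.624), Bmpr2 at 0.534 (0.395 to 0.718) and Tgfbr3 at 0.679 (0.557 to 0.828). Without cells that held Ptprc, Cdh5 or Pecam1, which left 15 mutant and 40 control cells, they were 0.926 (0.554 to 1.48), 1.70 (0.997 to 2.82), 1.63 (1.13 to 2.31) and 2.43 (1.96 to 3.01). The lower levels of the 3-month mutant were thus not seen among the remaining cells, apart from the Acvr1 ratio, whose interval includes 1. Over all genes with all cells, the median bone/stroma ratio was 0.32 on the log2 scale at 3 months and 0.31 at 12 to 16 months, and 0.07 and 0.06 after TMM scaling. At 12 to 16 months leaving out such cells moved the ratios less, with Tgfbr3 at 2.89 with them and 3.32 (2.71 to 4.10) without, Acvr1 at 2.26 and 2.37, and Acvr2a at 2.51 and 3.10. The stromal cells, in which these 3 genes are high, were 5 of 25 bone/stroma cells in that control and 38 of 77 in that mutant, and their part in the ratios was not tested.

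Age was compared within each genotype in other cartilage, with older over younger cells. In control mice no receptor of 9 was past 1.5-fold, the largest ratios being 1.48 (0.790 to 2.59) for Acvr2b and 1.46 (1.23 to 1.73) for Tgfbr1, while 15.7% of all genes were past it upward and 13.3% downward. In mutant mice none of 9 was past it either, with Bmpr1b at 1.49 (1.19 to 1.88), Bmpr1a at 0.775 (0.662 to 0.905) and Tgfbr1 at 1.01 (0.892 to 1.14), against 11.7% and 11.4% of all genes. The Acvr2b value of controls turned to −1.42 on the log2 scale after thinning. The Bmpr1b value of mutants turned to −0.47 over all passing cells. In endplate the older cells held less Bmpr1b in both genotypes, with ratios of 0.191 (0.0843 to 0.378) in controls and 0.473 (0.334 to 0.653) in mutants. The older control value rests on 9 UMIs in 12 cells. With Bmpr1b, 3 of 8 receptors in mutant endplate were past the fold downward and 0 upward. The others were Tgfbr3 at 0.578 (0.536 to 0.623) and Acvr2a at 0.606 (0.318 to 1.07). In control endplate 2 of 7 were downward and 0 upward, the other being Acvr1 at 0.645 (0.355 to 1.12). Of all endplate genes, 19.1% were past it downward and 18.5% upward in mutants, and 18.9% and 17.8% in controls.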

How the data were processed

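Single-cell 3′ libraries (10x Genomics v3.1) of sorted tdTom+ spine cells were deposited by the authors as UMI count matrices from Cell Ranger 8.0.0 on mm10 with tdTomato added, 1 per condition. The authors did not normalize these counts, and the study's removal of ambient RNA and its clustering were not applied here. Gates and cell filters were as given in the report, and a cell that met several went to the first of endplate, other cartilage, mural and bone/stroma. Cells were summed per gate and library (15 sums of at least 5 cells) and compared by edgeR 4.0.16 quasi-likelihood tests in R 4.3.3, with filterByExpr, TMM scaling, gate and library as terms and Benjamini-Hochberg adjustment at 0.05. Libraries serve as blocks, so p-values of the gate contrasts measure how the gate differences varied over these 4 libraries. Nothing states separate animals behind the libraries. Ratios between conditions are of CPM, with exact conditional binomial 95% intervals over genes with at least 20 UMIs in the 2 libraries. Intervals and floors of 3 UMIs cover counting error only. The genotype fit over both ages used age as a block and had 1 residual degree of freedom. It treated a change of the genotype difference between ages as error. Alternatives were DESeq2 1.42.0, its size factors, no filter, no block, thinning to 3000 UMIs, stricter gates, other cell sets and leaving out each library.

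Scrublet called 11 of 1757 cells doublets at a score of 0.25, a threshold set after the data were examined because the automatic one varied with the computer, and these cells were kept. Gene positions are from GENCODE vM21 (32158 of 32286 identifiers matched) and promoter windows from RefSeq. Named genes followed a rule: all 10 receptors, and from each of 6 lists of other receptors, co-receptors, Smads, regulators, ligands and response genes the counts and up to 4 genes with the smallest adjusted p, with further list genes named for their role after their values were seen. The receptors and the lists were chosen with earlier results of these data known. The divisions inside gates and the bone/stroma ratios without cells that held Ptprc, Cdh5 or Pecam1 were added after the data were examined.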

Additional observations from a re-analysis of the deposited data

Results flagged for a closer look

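Ratios of mutant to control CPM were compared between gates and ages, and for 3 receptors the ratios were past 1.5-fold in opposite directions with intervals on either side of 1. Each rests on 1 library against 1, and the differences were not tested. Tgfbr1 at 3 months had a ratio of 1.844 in other cartilage and 0.5157 in endplate. Acvr1 in bone/stroma had a ratio of 0.2801 at 3 months and 2.261 at 12 to 16 months. Bmpr2 at 3 months had a ratio of 2.041 in mural cells and 0.5339 in bone/stroma. The 3-month bone/stroma values of Acvr1 and Bmpr2 became 0.926 and 1.63 without the cells that held Ptprc, Cdh5 or Pecam1, so that neither opposition was seen without them. Among 27 groups of 4 libraries, none had a receptor level far from the other 3 by Dixon's 95% criterion, which chance passes in about 1 of 20 groups.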

How the results depend on the processing

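Over all alternatives, 964 of the values for single receptors kept their direction and side of the threshold, 23 newly passed, 11 no longer passed, 35 values without a test moved by more than their counting interval and 31 turned direction. Tgfbr1 kept its call in 14 of 14 alternatives in each contrast against other cartilage, as did Tgfbr3 in bone/stroma and mural cells, and Bmpr1b in bone/stroma in 13 of 13. The cause was not tested for the changes below, except that thinning leaves Acvr2a, Acvr2b, Acvrl1 and Bmpr1b out of the fit.

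In endplate against other cartilage, 2 members were called lower without the low-count filter, by DESeq2, without cells that held Ptprc, Cdh5 or Pecam1 and without Scrublet doublets, the second being Acvr2b each time. Leaving out a library gave 0 to 1 higher and 1 to 2 lower. In bone/stroma against other cartilage, 3 were higher without cells that held Ptprc, Cdh5 or Pecam1, 0 after thinning, and 0 to 2 on leaving out a library. In mural against other cartilage, 2 were higher by DESeq2, Acvr2b being added to Acvrl1, and 0 after thinning. In mural against bone/stroma, 4 were lower without cells that held Ptprc, Cdh5 or Pecam1, and thinning gave 0 higher and 1 lower. Leaving out a library gave 1 to 2 in either direction. Without library as a block, Tgfbr2 in bone/stroma was called at −0.49 (edgeR, adjusted p = 0.044). No other receptor changed its call in the gate contrasts. Without age as a block, the genotype fit in other cartilage called 2 genes in place of 193 and still 0 receptors.

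For the genotype ratios past 1.5-fold at 3 months, 1 member was lower after thinning and with stricter gates. All passing cells gave 1 higher, Tgfbr3, and 1 lower, Acvr2b, while Tgfbr1 was no longer past the fold. At 12 to 16 months a minimum of 50 UMIs gave 0 lower, and thinning 2 higher and 0 lower. For age in controls, 1 was higher without doublets and with equal cell weights, and 1 lower after thinning (Acvr2b) and over all passing cells (Bmpr1b). For age in mutants, 1 was higher and 1 lower without cells that held Ptprc, Cdh5 or Pecam1, 1 higher after thinning and over all passing cells, and 1 lower with stricter gates and equal cell weights.

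The following values turned direction (log2, with ranges over leaving out each library). In endplate against other cartilage, Acvr1 ran from −0.055 to 0.17, Bmpr1b from −0.16 to 0.55 and Bmpr2 from −0.045 to 0.15, each below 0 without the 3-month control, and Bmpr1b was at −0.11 without the 3-month mutant. In bone/stroma against other cartilage, Bmpr2 ran from −0.25 to 0.23 and Acvr2b from −0.086 to 0.22, and Bmpr2 was at 0.35 without cells that held Ptprc, Cdh5 or Pecam1, 0.26 thinned and 0.019 with stricter gates. In mural against other cartilage, Bmpr2 ran from −0.083 to 0.29 and was at −0.055 unfiltered, −0.033 without cells in several gates and −0.018 without cells that held Ptprc, Cdh5 or Pecam1, and Acvr1 was at 0.055 thinned. In mural against bone/stroma, Bmpr2 ran from −0.27 to 0.50 and was at −0.37 without cells that held Ptprc, Cdh5 or Pecam1. Leaving out such cells put Bmpr1a and Bmpr2 in bone/stroma at 0.77 and 0.70 between genotypes at 3 months, and Tgfbr3 and Bmpr2 at −0.34 and −0.15 between ages in mutants. It also turned Tgfbr2, Tgfbr3 and Acvr2a there to 0.87, 1.28 and 0.70 between genotypes at 3 months. Tgfbr2 there turned to −0.77 between ages in mutants. In the genotype fit over both ages, Tgfbr2 in other cartilage ran from −0.053 to 0.14 and was at −0.14 thinned, Acvr2a ran from −0.23 to 0.021 and Bmpr1b from −0.36 to 0.22. In endplate, Bmpr1b ran from −0.69 to 1.74 and was at −0.047 thinned, Acvr2a ran from −0.049 to 1.10 and Acvr1 from −0.12 to 0.54. Some ratios counted above as moved also crossed 0. Between genotypes at 3 months, Bmpr1b went from −0.34 in other cartilage to 0.18 over all passing cells. Between ages in controls, thinning took Acvr2b from 0.56 to −1.42 and Bmpr1a from 0.080 to −0.44. Over all passing cells Bmpr1b there went from 0.093 to −0.74. Between ages in mutants, all passing cells took Tgfbr2 from 0.19 to −0.26 and Bmpr1b to −0.47. Thinning took Tgfbr3 there from −0.059 to 0.027.

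Depth limits the sparse members most, since Acvr2b had 10 and Acvrl1 3 UMIs over all endplate cells, and mural Tgfbr1 had 10.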

Other observations

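Genes whose levels over the 15 gate-by-library sums were most like those of each receptor were listed by Pearson's r of log2(CPM + 10). These sums share libraries and gates, so r is a description. Tgfbr1 was nearest to Dcn (0.924), Ctsh (0.918) and Abi3bp (0.910), and Dcn encodes decorin, a matrix proteoglycan that binds TGF-β. Tgfbr2 was nearest to Aopep (0.932), Pigb (0.923) and its ligand gene Tgfb2 (0.918). The genes near Tgfbr3 included 2610035D17Rik (0.954) and Kcnma1 (0.9498), and Bmpr1b was nearest to Cd9 (0.949), Dnajb2 (0.936) and Susd5 (0.935). Bmpr1a was nearest to Igf2r (0.922), Lix1l (0.910) and Ift81 (0.887). The closest gene was further off for Bmpr2 (Zfyve1, 0.865), Acvr2a (Zfp281, 0.835) and Acvr1 (Sec24d, 0.822). Acvr2b and Acvrl1 had fewer than 200 UMIs and were not ranked.

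In the cartilage gates, Tgfbr3 UMIs were spread over many cells rather than a few. In endplate 220 of 222 cells had a Tgfbr3 UMI, with a mean of 30.7 UMIs in those cells, and the highest single cell held 2.83% of the total. In other cartilage 1011 of 1065 cells had it, with a mean of 9.60 UMIs.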
